A study of Mus musculus with 6 samples.

Results

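The 39 genes described here encode WNT ligands, their receptors and their secreted antagonists, and were taken by symbol from the probe sets of the array that name exactly 1 gene. All 39 were measured, by 40 of 28853 probe sets, and they are 39 of the 19938 genes that such probe sets name. The cells were MS5, a mouse bone marrow stromal line, treated with PD184352, a MEK inhibitor (MEKi, 1 μM), or with its diluent (DMSO), and harvested after 7 days. Each of 3 independent experiments gave 1 MEKi and 1 diluent culture, which makes 3 MEKi and 3 diluent arrays, 6 in all, and the cells carried no other modification named in the labels. The cultures came from 1 cell line, so the spread between experiments is that of repeated cultures and not of animals. Values are log2 intensities normalized by the robust multichip algorithm (RMA).

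WNT proteins are secreted lipid-modified ligands that bind a Frizzled receptor together with the co-receptor LRP5 or LRP6. This stops the degradation of β-catenin, which then enters the nucleus and activates genes with TCF and LEF factors, while other WNT proteins act through Frizzled and ROR receptors without β-catenin. Secreted Frizzled-related proteins (SFRP, and FRZB) and WIF1 bind the ligands themselves, whereas Dickkopf proteins act on the co-receptors with help from Kremen. In bone marrow stroma the pathway is known for favouring bone formation over fat formation.

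No gene of this group passed the test between MEKi and diluent, and the differences were small. At an adjusted p under 0.05 from limma, with the experiment as a block, 0 of the 39 genes were called, against 0.159% of all probe sets (0.104% higher and 0.0555% lower), and the lowest adjusted p was 0.186, that of Sfrp1. At an unadjusted p under 0.05 the same fit had 7 genes (17.9%, beside 9.89% of all probe sets), 6 higher and 1 lower with MEKi. These are 15.4% and 2.56% of the 39, where 7.58% and 2.31% of all probe sets were higher and lower at that p. After a further quantile normalization 5 were higher and 2 lower, beside 5.08% and 4.6% of all probe sets. The 6 were Sfrp1, Fzd8, Fzd4, Wnt4, Sfrp4 and Sfrp2, and the lower gene was Lrp5. An ordinary analysis of variance, without limma's pooling of the variances, also called 0, with 1 gene higher and 1 lower at an unadjusted p under 0.05. Neither Sfrp1 (SE then 0.122) nor Lrp5 (SE then 0.126) was among the genes counted there. The median log2 fold change of the 39 genes was 0.032, beside 0.037 for all probe sets.

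Log2 fold changes ran from −0.26 for Lrp5 to 0.52 for Fzd4. For 37 of the 39 genes the 95% confidence interval of the fold change lay inside 1.5-fold in either direction, as it did for 96.8% of all probe sets. Fzd4 and Sfrp1 were the genes whose interval reached further. Of the 39 genes, 9 were higher and 5 lower with MEKi in every experiment, and 25 went both ways, where 23.8% and 7.98% of all probe sets were higher and lower in every experiment. The MEKi and diluent arrays did not overlap for 4 genes, higher for Fzd4 and Dkk2 and lower for Wnt3a and Wnt9a, beside 7.86% of all probe sets (5.69% higher and 2.17% lower). The filter of the study's methods, read as an unadjusted p no greater than 0.05 with 1.5-fold or more, passed 0 of the 39 genes, beside 0.537% of all probe sets. The methods print that threshold as 0.05%, and read in this way it also passed 0 of the 39, beside 0.239% of all probe sets. RMA values of different probe sets cannot be ranked as transcript levels, since probes differ in brightness, and the files give no detection call. For orientation, 13 of the 39 genes had a mean at or above 6.32, the median over all probe sets, and the other 26 had values between 4.41 and 6.63.

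**Figure D1:**
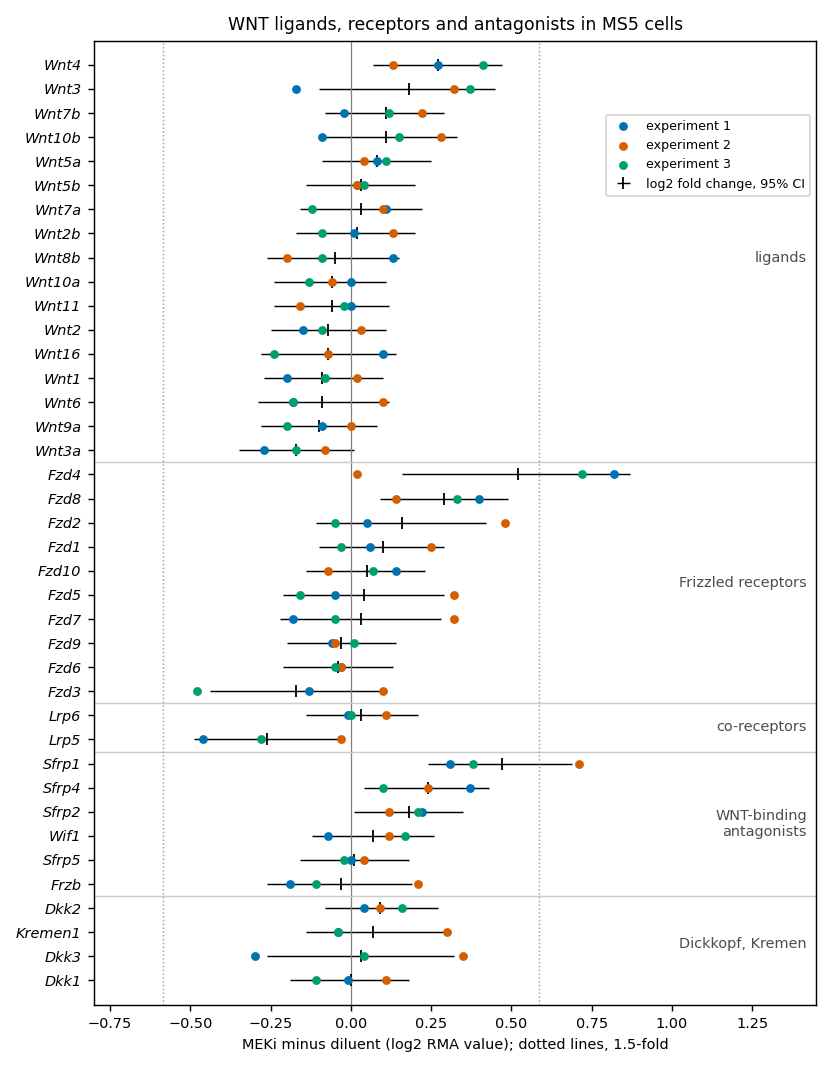
The x axis gives MEKi minus diluent (log2) for the 39 genes of the y axis, grouped by role, with a coloured point for each of 3 experiments; the black mark with its bar is the log2 fold change with its 95% confidence interval from limma. Fzd4 (0.52) and Sfrp1 (0.47) lie furthest right, and their bars cross the dotted line at 1.5-fold.

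Among the 17 ligands, Wnt4 alone reached an unadjusted p under 0.05. WNT4 is a ligand known for its part in the development of the kidney and the female reproductive tract. Wnt4 had values of 8.15, 8.01 and 7.67 in the MEKi cultures of experiments 1, 2 and 3, against 7.89, 7.88 and 7.25 in the diluent cultures. Each MEKi culture lay above the diluent culture of its own experiment, but the groups overlapped because both cultures of experiment 3 were low. The log2 fold change was 0.27 (standard error, SE, 0.0841; limma adjusted p = 0.373). A further probe set of the gene had values of 7.68, 7.67 and 7.49 with MEKi, against 7.28, 7.55 and 7.24 with diluent, and a difference of 0.26 on the log2 scale (SE 0.0829, adjusted p = 0.379).

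Wnt3a, a ligand widely used to activate β-catenin signalling, had values of 5.89, 6.0 and 5.92 with MEKi, against 6.16, 6.08 and 6.09 with diluent. All MEKi arrays were below all diluent arrays, by differences of −0.27, −0.08 and −0.17 in experiments 1, 2 and 3. The log2 fold change was −0.17 (SE 0.0772, limma adjusted p = 0.54). Its values were below the median of the array, where a difference of intensities can understate a difference of RNA. Wnt9a, which acts in the development of joints, had values of 6.64, 6.66 and 6.62 with MEKi and 6.73, 6.67 and 6.83 with diluent, which is −0.10 on the log2 scale (limma adjusted p = 0.733). Wnt9a did not overlap between the groups either, although experiment 2 gave a difference of 0.00 to the printed precision.

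Of the remaining ligands, Wnt5a, Wnt5b and Wnt10a kept a direction in every experiment, Wnt5b with a log2 fold change of only 0.03. Wnt5a, the usual example of a ligand that acts without β-catenin, was at 4.91, 4.84 and 4.81 with MEKi and at 4.84, 4.8 and 4.70 with diluent (log2 fold change 0.08, limma adjusted p = 0.784). Wnt10a was at 6.50, 6.33 and 6.36 with MEKi and at 6.50, 6.39 and 6.49 with diluent (−0.06, adjusted p = 0.824). The groups overlapped for each of these 3 genes. Wnt10b, which holds back fat cell formation in mice, differed by −0.09, 0.28 and 0.15 in experiments 1, 2 and 3, and Wnt3 by −0.17, 0.32 and 0.37. Over the 17 ligands, 1 was higher and 0 lower at an unadjusted p under 0.05, beside 7.58% and 2.31% of all probe sets. The other 16 did not reach it, and the median log2 fold change of the ligands was −0.054. Wnt4, Wnt9a and Wnt10a were the 3 ligands with a mean at or above the median of all probe sets.

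The Frizzled receptors differed most at Fzd4 and Fzd8. FZD4 is a receptor for WNT proteins and also for norrin, through which it shapes the vessels of the retina. Fzd4 had values of 6.28, 6.29 and 6.63 in the MEKi cultures of experiments 1, 2 and 3, against 5.46, 6.27 and 5.91 in the diluent cultures. Every MEKi array was above every diluent array, but the nearest arrays were almost level, and the differences within experiments were 0.82, 0.02 and 0.72. The log2 fold change was 0.52 (SE 0.151, 95% confidence interval 0.16 to 0.87, limma adjusted p = 0.343), or 1.43-fold. Without limma's pooling of the variances the SE was 0.251. The mean of Fzd4 over the 6 arrays, 6.14, was below the median of all probe sets. Fzd8 had values of 7.93, 7.82 and 7.53 with MEKi, against 7.53, 7.68 and 7.20 with diluent. Its MEKi cultures lay above those with diluent by 0.40, 0.14 and 0.33, with overlap between the groups, and its log2 fold change was 0.29 (SE 0.0831, limma adjusted p = 0.336).

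The other 8 Frizzled genes did not reach an unadjusted p under 0.05, and their log2 fold changes lay between −0.17 (Fzd3) and 0.16 (Fzd2). At that p, 2 of the 10 Frizzled genes were higher and 0 lower, beside 7.58% and 2.31% of all probe sets. Fzd1, Fzd2, Fzd5 and Fzd7 had means at or above the median of all probe sets, as did Fzd8. Fzd7, a receptor often studied in stem cells, was at 8.84, 9.07 and 9.01 with MEKi, against 9.02, 8.74 and 9.06 with diluent. Its groups overlapped fully, with differences of −0.18, 0.32 and −0.05. Fzd1, Fzd2, Fzd5 and Fzd7 were each more than 0.20 higher with MEKi in experiment 2, and none was by more than 0.06 in experiment 1 or 3. In that experiment the median difference of all probe sets was 0.10, beside −0.003 and 0.014 in experiments 1 and 3. The median over the 10 Frizzled genes was 0.119 in experiment 2, and 0.010 and −0.036 in experiments 1 and 3.

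Lrp5, whose product is the co-receptor known for its effect on bone mass, was the gene with the lowest log2 fold change. It had values of 10.27, 9.98 and 10.21 with MEKi, against 10.74, 10.01 and 10.49 with diluent. The diluent cultures of experiments 1 and 3 were the highest, while the cultures of experiment 2 were alike and low. The log2 fold change was −0.26 (SE 0.0977, limma adjusted p = 0.458), made up of −0.46, −0.03 and −0.28. Lrp6, the other co-receptor, had values of 10.39, 10.57 and 10.21 with MEKi and 10.40, 10.45 and 10.21 with diluent, and a log2 fold change of 0.03 (95% confidence interval −0.14 to 0.21).

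The mean of 6 adipocyte markers (Adipoq, Plin1, Fabp4, Pparg, Cebpa and Lpl) was 10.87, 11.68 and 11.86 in the MEKi cultures of experiments 1, 2 and 3, against 10.55, 11.69 and 11.32 in the diluent cultures. Its differences were 0.32, −0.01 and 0.54, and were nearest 0 in experiment 2, as were those of Fzd4 and, with the opposite sign, of Lrp5. Of these 6 markers 0 passed at an adjusted p under 0.05, and each had a mean of at least 9.76. The markers did not all behave like their mean. Adipoq, which encodes the fat cell hormone adiponectin, differed by 0.75, 0.06 and 0.56 in experiments 1, 2 and 3, Plin1, of the lipid droplet coat, by 0.77, −0.17 and 0.93, and Fabp4, a fatty acid carrier, by 0.54, −0.02 and 0.57. Cebpa, a transcription factor of fat cells, differed by −0.17, 0.19 and 0.79, Pparg, their master regulator, by 0.03, −0.11 and 0.19, and Lpl, a lipase, by −0.02, 0.00 and 0.20. The log2 fold changes of the 6 ran from 0.04 for Pparg to 0.51 for Plin1. Adipoq, Plin1 and Fabp4 were at an unadjusted p under 0.05, as were 9.89% of all probe sets (7.58% higher). The pattern was particular neither to adipocyte markers nor to Fzd4 and Lrp5. The differences of Fzd8 (0.40, 0.14 and 0.33) and Wnt4 (0.27, 0.13 and 0.41) were also nearest 0 in experiment 2. So were those of Sfrp2 (0.22, 0.12 and 0.21), Wnt3a (−0.27, −0.08 and −0.17) and Wnt9a (−0.09, 0.00 and −0.20). Sfrp1 differed most in experiment 2 (0.31, 0.71 and 0.38), and Sfrp4 least in experiment 3 (0.37, 0.24 and 0.10). The mean of 3 osteoblast markers differed by 0.42, −0.12 and 0.48 in experiments 1, 2 and 3. Among them Alpl differed by 1.29, −0.59 and 1.22 (limma adjusted p = 0.588), Sp7 by −0.07, 0.06 and 0.19, and Ibsp by 0.03, 0.16 and 0.04. These genes were set beside each other after their values were seen, and the part of the markers in the values of Fzd4 and Lrp5 was not tested. In RNA of whole cultures, a change in the number of cells of a type and a change of RNA per cell cannot be told apart.

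**Figure D2:**
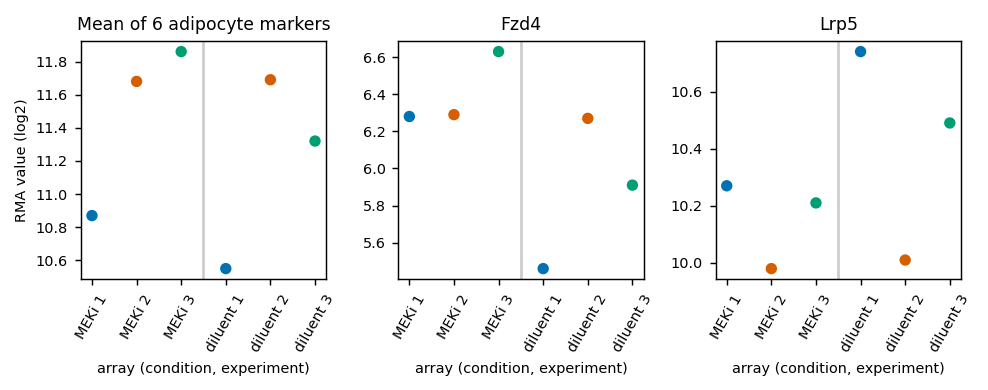
RMA values on the log2 scale (y axes) in the 3 MEKi and 3 diluent arrays (x axes, numbered by experiment) for the mean of 6 adipocyte markers, for Fzd4 and for Lrp5; each point is 1 array and colours mark experiments. In experiment 2 the MEKi and diluent points are level in all 3 panels. In experiments 1 and 3 the marker mean and Fzd4 are higher and Lrp5 is lower with MEKi. Fzd8, Wnt4, Sfrp2, Wnt3a and Wnt9a, not drawn here, also differed least in experiment 2, unlike Sfrp1 and Sfrp4. Neither Fzd4, Lrp5 nor any of the 6 markers passed at an adjusted p under 0.05.

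The antagonists that bind WNT proteins held 3 of the 6 genes with higher values at an unadjusted p under 0.05. Of all probe sets, 7.58% were higher at that p. Sfrp1, the founding member of the secreted Frizzled-related proteins, had values of 9.61, 9.0 and 7.52 in the MEKi cultures of experiments 1, 2 and 3, against 9.30, 8.29 and 7.14 in the diluent cultures. In each experiment the MEKi culture was the higher, by 0.31, 0.71 and 0.38, but the groups overlapped widely since experiment 3 lay far below experiment 1 under either condition. The log2 fold change was 0.47 (SE 0.0962, 95% confidence interval 0.24 to 0.69, limma adjusted p = 0.186), or 1.38-fold. Without the block for experiment its mean was 8.71 ± 1.07 with MEKi and 8.24 ± 1.08 with diluent (SD, n = 3 each).

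Sfrp4, which is known from bone, had values of 6.0, 5.43 and 5.35 with MEKi, against 5.63, 5.19 and 5.24 with diluent. The MEKi culture was higher by 0.37, 0.24 and 0.10, with overlap between the groups, and the log2 fold change was 0.24 (SE 0.0823, limma adjusted p = 0.413). Sfrp2 had values of 5.14, 4.84 and 5.27 with MEKi, against 4.92, 4.72 and 5.06 with diluent. It was higher by 0.22, 0.12 and 0.21, again with overlap, and its log2 fold change was 0.18 (SE 0.0737, limma adjusted p = 0.485). The values of Sfrp4 and Sfrp2 were below the median of all probe sets.

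The other WNT-binding antagonists showed no common direction. Sfrp5 was at 5.30, 5.33 and 5.25 with MEKi and at 5.30, 5.30 and 5.27 with diluent, with all arrays close together. Frzb, which encodes an SFRP first found in cartilage, differed by −0.19, 0.21 and −0.11, and Wif1 by −0.07, 0.12 and 0.17. The median log2 fold change of the 6 genes was 0.127, with 3 higher in every experiment, 0 lower and 3 mixed. Of all probe sets, 23.8% were higher and 7.98% lower in every experiment. After a further quantile normalization, and after centring each array on its median, the log2 fold changes of Sfrp1, Sfrp4 and Sfrp2 kept their sign.

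**Figure D3:**
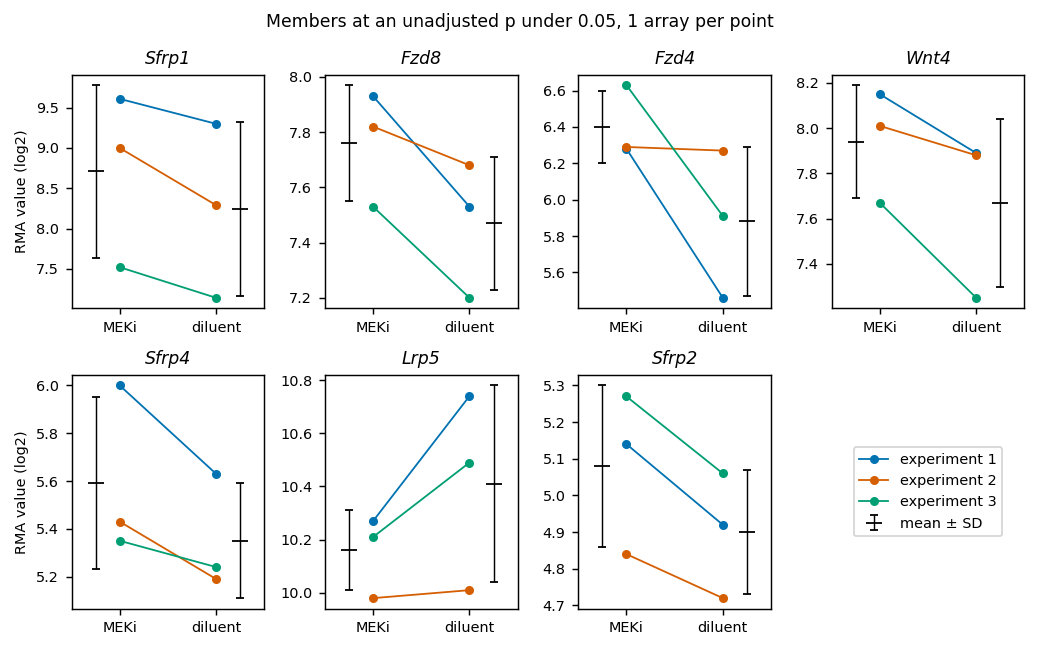
RMA values on the log2 scale (y axes, each with its own range) in MEKi and diluent cultures (x axes) for the 7 genes at an unadjusted p under 0.05; each point is 1 array, a line connects both cultures of each experiment, and the black bars are the mean ± SD of 3 cultures. All lines fall to the right except those of Lrp5, and the lines of Sfrp1 are spread from 7.14 to 9.61.

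Dickkopf and Kremen genes were close to level between the conditions. Dkk1, which encodes the best known inhibitor of LRP5 and LRP6 and is itself a β-catenin target, had values of 5.52, 5.73 and 5.41 with MEKi, against 5.53, 5.62 and 5.52 with diluent. Its log2 fold change was 0.00 (95% confidence interval −0.19 to 0.18). Dkk2, a Dickkopf that can also act as a weak activator, was at 5.85, 5.84 and 5.82 with MEKi and at 5.81, 5.76 and 5.66 with diluent (0.09, limma adjusted p = 0.732). All MEKi arrays of Dkk2 were above all diluent arrays, though by little. Dkk3, a relative that does not act on LRP6, differed by −0.30, 0.35 and 0.04. Kremen1, the receptor through which Dickkopf removes LRP6 from the surface, was at 9.79, 9.61 and 9.49 with MEKi and at 9.83, 9.32 and 9.53 with diluent, with overlap and a log2 fold change of 0.07.

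For most of these genes, as for most probe sets, the range between the experiments was larger than the difference between MEKi and diluent. The measures are unlike, since a range spans 3 values and the log2 fold change is a mean of 3 differences. The range between the experiments, taken over the mean of the MEKi and the diluent culture of each, exceeded the size of the log2 fold change for 29 of the 39 genes (74.4%) and for 83.9% of all probe sets. Sfrp1 had the largest such range, 2.12 on the log2 scale, followed by Fzd1 (0.90), Fzd2 (0.78), Wnt4 (0.56), Sfrp4 (0.52) and Lrp5 (0.51). The median range was 0.16 for the 39 genes and 0.19 for all probe sets. Of the 39 genes, 21 (53.8%) were lowest in experiment 3, as were 32.9% of all probe sets. Among the 13 brighter genes 8 were lowest there (61.5%), beside 30.9% of probe sets of such brightness. Fzd1, for example, was at 10.85, 10.80 and 9.91 with MEKi, against 10.79, 10.55 and 9.93 with diluent, so that both cultures of experiment 3 stood apart while the log2 fold change was 0.10 (SE 0.0835). Fzd2 was likewise at 9.33, 9.58 and 8.53 with MEKi and at 9.28, 9.10 and 8.58 with diluent. Lrp5 was lowest in experiment 2 and Fzd4 in experiment 1. The labels give no batch, date or passage for the experiments, and these ranges are given as a description with no test.

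**Figure D4:**
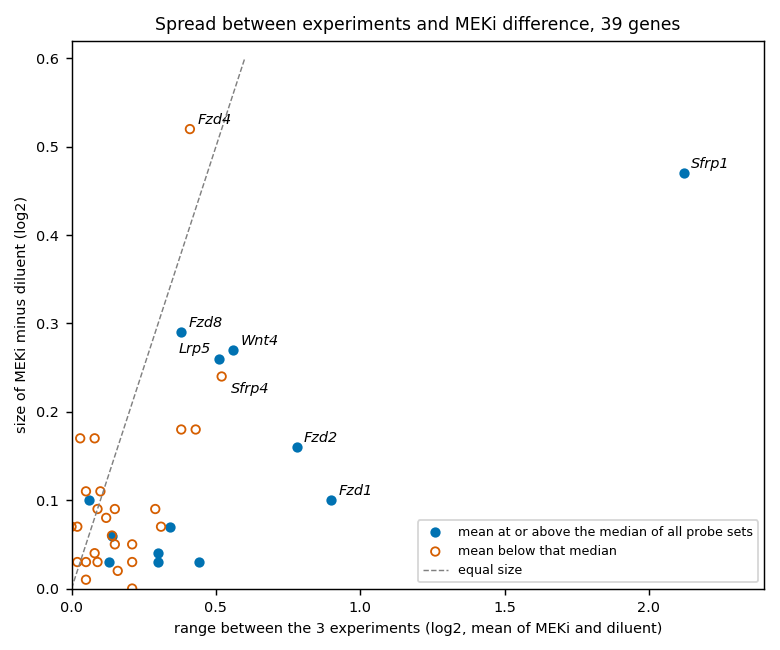
Size of MEKi minus diluent (y axis, log2) against the range between the 3 experiments (x axis, log2) for the 39 genes; filled points have a mean at or above the median of all probe sets, and the dashed line marks equal size. Sfrp1 stands at a range of 2.12, and Fzd4 lies above the dashed line.

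The RefSeq table of promoters (GRCm38.p6) held 26 of the 39 genes and, of the 7 at an unadjusted p under 0.05, Wnt4, Fzd4 and Sfrp2. The values of these 3 genes were higher with MEKi in each experiment. The 250 bases before the start of each are shown because the gene reached that p and was in the table. They were searched on both strands for AP-1 (TGACTCA), ETS (CCGGAA) and EGR (GCGGGGGCG or GCGTGGGCG) motifs, which are bound by factors that ERK signalling activates or induces. TCF/LEF motifs (CTTTGAA or CTTTGAT) and GC boxes (GGGCGG) were searched too, and capitals mark every match.
Wnt4, chr4:137277385-137277634, plus strand: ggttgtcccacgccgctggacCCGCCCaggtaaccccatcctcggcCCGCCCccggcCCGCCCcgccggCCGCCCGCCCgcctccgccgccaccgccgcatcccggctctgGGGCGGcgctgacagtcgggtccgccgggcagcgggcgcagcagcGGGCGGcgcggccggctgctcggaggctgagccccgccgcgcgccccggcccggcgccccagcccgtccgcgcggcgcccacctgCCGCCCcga
Fzd4, chr7:89404116-89404365, plus strand: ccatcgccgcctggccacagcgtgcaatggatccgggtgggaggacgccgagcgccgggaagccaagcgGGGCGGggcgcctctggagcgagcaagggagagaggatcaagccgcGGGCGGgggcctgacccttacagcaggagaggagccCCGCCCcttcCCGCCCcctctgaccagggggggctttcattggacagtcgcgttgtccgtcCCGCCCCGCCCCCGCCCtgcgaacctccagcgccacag
Sfrp2, chr3:83766071-83766320, plus strand: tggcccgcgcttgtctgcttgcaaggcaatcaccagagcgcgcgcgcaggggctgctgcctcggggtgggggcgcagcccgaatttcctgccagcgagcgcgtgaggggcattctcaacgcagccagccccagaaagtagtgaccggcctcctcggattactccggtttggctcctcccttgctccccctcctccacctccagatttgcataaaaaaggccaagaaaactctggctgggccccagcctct
The window of Wnt4 held 8 GC boxes and that of Fzd4 held 7, some of them overlapping, while that of Sfrp2 held 0. GC boxes were found in 32.7% of all 32851 windows and in 21 of the 29 windows of the WNT genes in the table. Fzd4 also held 1 EGR motif, overlapping its GC boxes, which 3.06% of all windows and 6 of those 29 held. None of the 3 windows held an AP-1, ETS or TCF/LEF motif, found in 4.46%, 12% and 7.48% of all windows. Of the bases, 85.2% were G or C for Wnt4, 72.8% for Fzd4 and 63.6% for Sfrp2. A match of letters is no evidence of binding, and its absence says only that these letters are not in the window.

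Other genes of the pathway were read from 5 lists of 64 genes, of which 63 were measured. At an adjusted p under 0.05, 0 rose, 1 fell and 62 did not pass. The gene that fell was Ccnd1, which encodes cyclin D1 and is counted among β-catenin targets as well as outputs of ERK. It had values of 8.71, 8.23 and 7.73 with MEKi, against 10.25, 9.53 and 8.84 with diluent, which is −1.32 on the log2 scale (limma adjusted p = 0.03). All MEKi arrays were below all diluent arrays, with differences of −1.54, −1.31 and −1.11 in experiments 1, 2 and 3. The call was lost without the block, with a random block, without experiment 2, by the ordinary analysis of variance and after centring each array on its median. In these settings 0 of all 28853 probe sets were called, and the log2 fold change was −1.32, or −1.35 after centring. Settings that changed only the block or the variance could not alter the log2 fold change in this paired design. At an unadjusted p under 0.05, 8 of the 63 were higher and 2 lower, beside 7.58% and 2.31% of all probe sets, and the median log2 fold change was 0.038.

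Among 17 measured reporters and targets of β-catenin, 2 were higher and 2 lower at an unadjusted p under 0.05. Of all probe sets, 7.58% and 2.31% were higher and lower at that p. Axin2, the target most used as a reporter of the pathway, was at 5.37, 5.40 and 5.39 with MEKi and at 5.44, 5.47 and 5.23 with diluent. Its groups overlapped, and its log2 fold change was 0.00 (SE 0.0823, limma adjusted p = 0.992). Lef1, a transcription factor that β-catenin both uses and induces, was at 5.6, 5.59 and 5.62 with MEKi and at 5.62, 5.65 and 5.63 with diluent (−0.03). Axin2 and Lef1 were below the median of all probe sets. Apcdd1, a target whose membrane protein binds WNT and LRP5, was at 0.23 (limma adjusted p = 0.468), and Jag1, a NOTCH ligand, at 0.19 (adjusted p = 0.482), in log2 fold change. Cd44, a hyaluronan receptor, was at 7.35, 7.32 and 7.28 with MEKi, against 7.67, 7.55 and 7.48 with diluent, with no overlap (−0.25, adjusted p = 0.35).

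Of all probe sets, 7.58% were higher and 2.31% lower at an unadjusted p under 0.05. Of 23 genes of the destruction complex and of transduction, 4 were higher and 0 lower at that p. They were Amer1 (log2 fold change 0.24), a scaffold of the destruction complex, Tcf7l2 (0.21), a TCF factor, Dvl3 (0.19), which relays the signal from Frizzled, and Ctnnbip1 (0.18), an inhibitor that binds β-catenin. Their adjusted p-values lay between 0.378 and 0.483. The count of the 23 in either direction became 2 after a further quantile normalization and 0 with no replicate block. In these settings 9.67% and 3.14% of all probe sets were at that p. Ctnnb1, the gene of β-catenin, was at 11.36, 11.65 and 11.66 with MEKi, against 11.59, 11.69 and 11.84 with diluent. It was lower by 0.23, 0.04 and 0.19 in experiments 1, 2 and 3 with overlap between the groups (−0.15, limma adjusted p = 0.584). Of 14 non-canonical receptors and planar polarity genes, Celsr3, a polarity cadherin (0.30, adjusted p = 0.267), and Gpc4, a glypican (0.26, adjusted p = 0.339), were higher at an unadjusted p under 0.05. Porcn and Wls, which serve WNT secretion, had log2 fold changes of 0.20 and 0.17, and neither they nor the 7 other secreted modulators reached an unadjusted p under 0.05. After a further quantile normalization the 63 genes had 3 higher and 5 lower at an unadjusted p under 0.05. Of all probe sets, 5.08% were then higher and 4.6% lower.

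**Figure D5:**
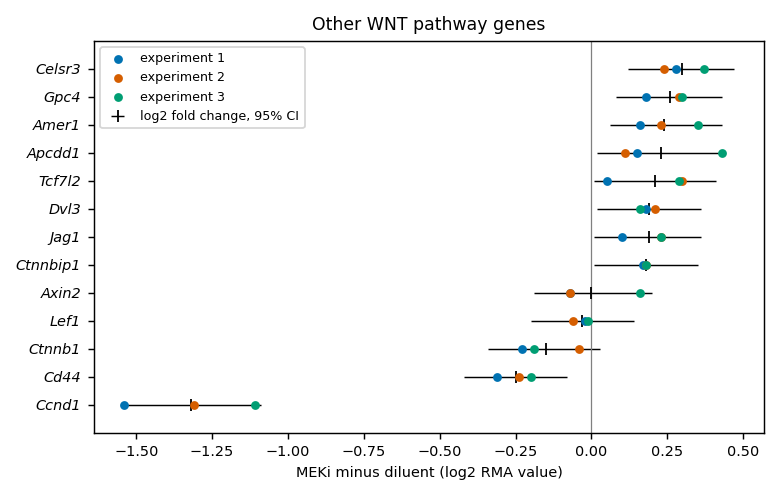
The x axis gives MEKi minus diluent (log2) for the 10 other WNT pathway genes at an unadjusted p under 0.05 and for Axin2, Lef1 and Ctnnb1 (y axis), with a coloured point for each of 3 experiments; the black mark with its bar is the log2 fold change with its 95% confidence interval from limma. Ccnd1 lies at −1.32, and the other genes lie between −0.25 and 0.30.

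Over the series, array medians lay between 6.29 and 6.38. Of 8 stromal markers 7 had a mean at or above the median of all probe sets, and Thy1 did not. The mean of these 8 ran from 10.65 to 10.90 with MEKi and from 10.69 to 10.87 with diluent. Among them, Vcam1, an adhesion molecule, was lower by 0.73, 0.48 and 0.50 in experiments 1, 2 and 3 (limma adjusted p = 0.0942), and Cxcl12, a chemokine, was at 0.22 in log2 fold change (limma adjusted p = 0.445). The 3 leukocyte and 3 endothelial markers measured were all below that median, with means between 4.70 and 6.09. Krt8 among 3 epithelial markers and Alpl among 3 osteoblast markers were above it. Dusp6, a phosphatase that ERK signalling induces, was at 6.44, 7.17 and 6.99 with MEKi, against 7.18, 7.81 and 7.32 with diluent. Its log2 fold change was −0.57 (limma adjusted p = 0.137). Spry2, also read as an output of ERK, had a log2 fold change of −0.22 (limma adjusted p = 0.437). Of the 3 outputs read, Ccnd1 alone passed at an adjusted p under 0.05.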

How the data were processed

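Total RNA of 6 MS5 cultures, 1 array each, was hybridized to Affymetrix mouse Gene 1.0 ST arrays. The authors normalized the intensities with RMA, which corrects background, quantile-normalizes and summarizes each probe set, and deposited log2 values of 28853 probe sets. The submitters' processing notes name RMA and Partek, and versions are not given in the sources used here. No probe set was filtered out. Probe sets were named by the platform's table, of which 21789 name 1 gene. Wnt4, with more than 1 probe set, is given by its brighter one.

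The difference between MEKi and diluent was fitted with limma 3.58.1 (R 4.3.3), with the experiment as a block, over all probe sets, with Benjamini-Hochberg adjustment and a threshold of 0.05. The block left 2 residual degrees of freedom, and the prior added 5.17. The titles give the pairing. The deviations of the MEKi and diluent arrays from their group means correlated within experiments 1, 2 and 3 by 0.81, 0.59 and 0.62 across probe sets, which are not independent. Other pairs of arrays had −0.61 to 0.21. The procedure was run on simulated data with independent normal errors drawn from limma's own fitted prior. That run cannot show how the fit does where this model is wrong.

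The 39 genes and the pathway and marker lists were chosen with earlier results of these data known. Genes with values in each array are those at an unadjusted p under 0.05 and the 12 with the largest log2 fold change among those with 1 direction in every experiment. Genes shown for comparison (Fzd7, Fzd1, Fzd2, Lrp6, Sfrp5, Dkk1 and Kremen1) and the markers beside Fzd4 were chosen after their values were seen. The older symbols of the target list were matched through synonyms in a RefSeq gene table. The alternatives were a fit with no replicate block, a random block, a further quantile normalization, centring of arrays, probe sets naming 1 gene, brighter probe sets, an intensity trend and robust prior, weights for arrays, leaving out each experiment, averaging probe sets by gene and an ordinary analysis of variance. Plots used Python 3.11.15 (matplotlib 3.10.9). The number of arrays limits the precision.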

Additional observations from a re-analysis of the deposited data

How the results depend on the processing

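At an adjusted p under 0.05, 0 of the 39 genes were called under each of 13 alternatives and by the filter of p and 1.5-fold, including its reading as a percent, which was added after seeing the data. In 5 of the 13 (no replicate block, random block, centring, without experiment 2 and the ordinary analysis of variance) 0 of all probe sets were called, so that these say nothing of the 39 genes. In the other 8, 0.0485% to 0.399% of the features tested were called. Among these 8, the setting of brighter probe sets tested only 13 of the 39 genes. The lowest adjusted p of the 39 was 0.0933, that of Sfrp1 with an intensity trend and a robust prior. The median of the 39 genes was −0.009 without experiment 2 and −0.013 after quantile normalization, and moved by less than the spread between experiments in every alternative run for it. With no block or a random block the paired design did not allow the median to move.

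The counts at an unadjusted p under 0.05 did depend on the settings. For the 39 genes the count of 6 higher became 1 with no replicate block, 2 with the experiment as a random block, 3 among brighter probe sets (13 of the genes) and 1 by the ordinary analysis of variance. Of all features tested, 2.36%, 6.28%, 11.2% and 5.9% were higher in these settings, in that order, beside 7.58% in the fit reported. The count ran from 3 to 5 when 1 experiment was left out. Without experiments 1, 2 and 3 in turn it was 3, 5 and 4, beside 6.5%, 5.85% and 5.03% of all probe sets. The count of 1 lower became 0 with no replicate block and 2 after quantile normalization, after centring or with array weights. Of all probe sets, 0.783%, 4.6%, 4.08% and 3.28% were lower in these settings, in that order, beside 2.31% in the fit reported. The count of lower genes ran from 0 to 3 with 1 experiment left out, being 3 without experiment 2 and 0 without experiment 1 or 3. The shares of all probe sets without experiments 1, 2 and 3 were 1.39%, 4.77% and 1.93%. Without experiments 1, 2 and 3 in turn, the log2 fold change was 0.37, 0.77 and 0.42 for Fzd4. For Sfrp1 it was 0.55, 0.35 and 0.51.

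Of the other pathway genes, the call of Ccnd1, the 1 gene lower, was lost (0 genes) in the 5 settings in which no probe set was called, with adjusted p-values of 1 with no replicate block, 0.616 by the ordinary analysis of variance, 0.377 with a random block, 0.131 without experiment 2 and 0.0508 after centring, so that the count with 1 experiment left out ran from 0 to 1. The 8 higher at an unadjusted p under 0.05 became 2 with no replicate block, 3 with a random block, after quantile normalization or after centring, and 4 to 5 with 1 experiment left out. In these settings, in that order, 2.36%, 6.28%, 5.08%, 5.55% and 5.03% to 6.5% of all probe sets were higher, beside 7.58% in the fit reported. The 2 lower became 5 after quantile normalization, 4 after centring, and 1 to 5 with 1 experiment left out. In these settings, in that order, 4.6%, 4.08% and 1.39% to 4.77% of all probe sets were lower, beside 2.31% in the fit reported. The cause of these changes was not tested. Dim probe sets (26 of the 39 genes) limit what the arrays can show of their differences.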
